A study of Bos taurus with 106 samples.

Results

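The liver of dairy cows in early lactation was compared between day 49 and day 28 after calving, an interval that leads up to peak milk yield. The comparison used every array of both days from the cows sampled on both, which were 6 of the 8 cows of the series, 12 of its 53 cow-days and 24 of its 106 arrays. In the first month of lactation, a high-yielding cow draws on body fat, and the liver takes up the released fatty acids, oxidises them, re-esterifies them or turns them into ketone bodies. It makes nearly all the glucose for milk lactose from propionate, lactate and amino acids, because little glucose is absorbed from the rumen. As feed intake catches up with milk yield, fat mobilisation declines, and the demand for glucose and for secreted plasma proteins continues.

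The animals were Holstein cows that had received a moderate-energy diet (1.6 Mcal/kg) during a dry period of 65 days. In the restricted group, 4 cows (6877, 6952, 7045 and 7105) had been held to about 80% of the NRC requirement before calving. The ad libitum group was represented by 2 cows (7161 and 7187) that had eaten freely and reached about 120%; the other 2 cows of that group had day 28 and no day 49. Feeding after calving, milk yield and blood metabolites are not given in the sources used here. Every sample shared an array with a reference RNA of mixed non-liver tissues, once with liver in Cy3 and once in Cy5. Each value is a log2 ratio of liver over reference centred on the median of its array, and a cow-day is the mean of its 2 arrays. Changes are given as day 49 minus day 28 within a cow, on the log2 scale, on which positive values mean a higher ratio on day 49. In bulk liver RNA, fewer cells of a type and less RNA per cell cannot be told apart.

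Array agreement overlapped between the days. The 2 dye orientations of a sample correlated over elements at 0.53 to 0.745 on day 28 and at 0.555 to 0.761 on day 49, and cow 7161 on day 28 had the lowest value. The 5 hepatocyte markers on the array (ASGR2, APOA1, SLC10A1, RBP4 and TF) had a median level between 4.53 and 5.44 in all 12 samples, above the reference tissues. APOA1 was much lower than the others, with means of 1.26 on day 28 and 0.87 on day 49. Profiles of a cow on its 2 days correlated at 0.892 to 0.919 (median 0.903), and those of different cows on the same day at 0.84 to 0.94 (median 0.91). The ranges overlapped, so a liver was about as close to the liver of another cow on the same day as to its own earlier sample.

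The differences between day 28 and day 49 were small. In each cow, the median absolute difference over all elements was 0.221 ± 0.0392 (SD, n = 6 cows), with a range of 0.175 to 0.273. The same cows had moved by 0.251 ± 0.0405 from day -65 to day -30, by 0.451 ± 0.0867 from day -30 to day -14, by 0.355 ± 0.0720 from day -14 to day 1, by 0.355 ± 0.152 from day 1 to day 14 and by 0.373 ± 0.0577 from day 14 to day 28. The interval to day 49 was smaller than those that ended on days -14, 1 and 14 in 6 of 6 cows, with mean differences of -0.230, -0.133 and -0.134 (exact sign-flip tests, two-sided, each p = 0.0312, which is the lowest value possible with 6 cows, and adjusted p = 0.0417 over 4 tests). Against the interval from day -65 to day -30 it was smaller in 4 of 6 cows, with a mean difference of -0.0292 ± 0.0488 (SD, n = 6 cows). That difference did not pass (exact sign-flip test, p = 0.250, adjusted p = 0.250). The interval from day 14 to day 28 shares the day 28 samples and was not tested. The intervals differ in length. The 2 dye orientations also agreed less well on days -14, 1 and 14, with medians of 0.572, 0.536 and 0.553 against 0.688 and 0.726 on days 28 and 49, and the part of either in these sizes was not tested.

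**Figure D1:**
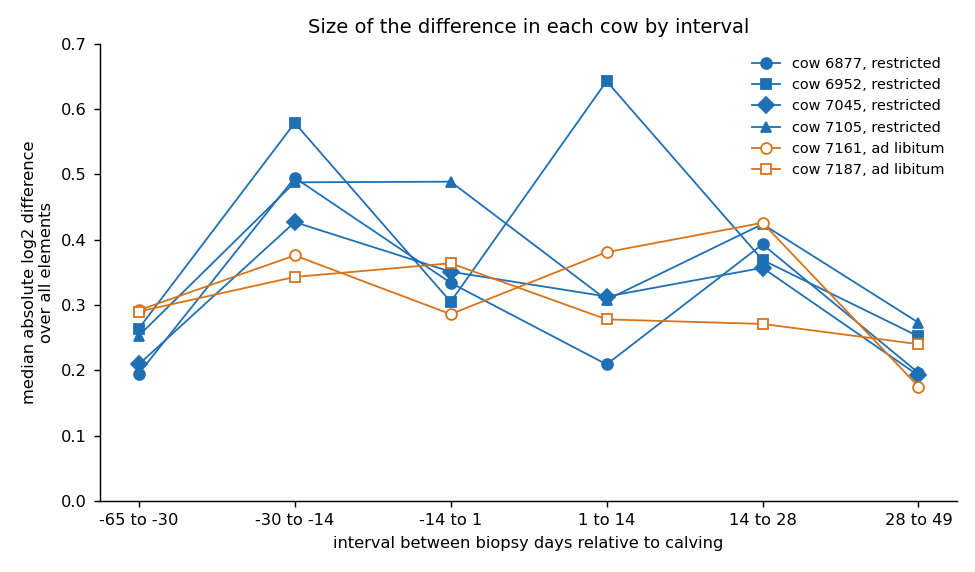
Median absolute log2 difference over all elements (y axis, from 0) between consecutive biopsy days (x axis, days relative to calving) in each of the 6 cows; filled blue symbols are restricted and open orange symbols ad libitum cows. The last interval, day 28 to day 49, lies between 0.175 and 0.273 in all 6 cows.

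No element passed at an adjusted p of 0.05 (limma with cow as a block, Benjamini-Hochberg over 8097 elements, 0% called in either direction, smallest adjusted p = 0.144). At an unadjusted p under 0.05 there were 1489 elements, or 18.4%, of which 515 (6.36%) were higher and 974 (12%) lower on day 49. This split of 34.6% higher was 97.2% with no centring of the arrays and 24.9% with liver in Cy5 alone. For comparison, 722 elements (8.93% of 8081) had an unadjusted p under 0.05 between days -65 and -30 in the same cows. None passed there either. The share was 34.5% from day -30 to day -14, with 1419 passing, and 15.3% from day 14 to day 28, with 22 passing. From day -14 to day 1 it was 3.66%, with 0 passing, and from day 1 to day 14 it was 5.25%, with 1 passing. The 18.4% from day 28 to day 49 was thus exceeded only in the interval that ended on day -14. Elements whose 6 cows all had the same sign numbered 311 higher (3.92%) and 591 lower (7.45%) of 7932. When the pairing by cow was dropped, 5 elements passed, all lower on day 49, and ACADS, MLXIPL, TCF7L1 and MRPL28, of the mitochondrial ribosome, were the named ones (limma, each adjusted p = 0.0492). The values below are therefore differences in 6 cows that did not pass the test over all elements in the paired fit.

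The element with the smallest p among named genes was LIMS2, an adaptor of integrin adhesion sites. It stood at 1.84, 1.47, 1.52 and 1.47 in the restricted cows (in the order given above) on day 28 and at 1.00, 0.93, 1.04 and 1.06 on day 49. The ad libitum cows moved from 1.25 and 1.82 to 0.71 and 1.26. Every restricted day 49 value lay below every restricted day 28 value, and both ad libitum cows were lower on day 49. The difference was -0.56 ± 0.08 (SE, n = 6 cows), or 1.48-fold lower (limma, adjusted p = 0.144).

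MLXIPL, the glucose-responsive transcription factor ChREBP that drives glycolytic and lipogenic genes in liver, had nearly the same statistics. Its levels in the restricted cows were 2.36, 2.19, 2.61 and 2.15 on day 28 and 1.77, 1.49, 1.62 and 1.79 on day 49. In the ad libitum cows they were 2.80 and 2.21, then 1.77 and 1.54. All day 49 values lay below all day 28 values, without overlap between the days in either diet. The difference was -0.72 ± 0.10 (SE, n = 6 cows), 1.65-fold lower (limma, adjusted p = 0.144). Its highest mean of the 7 days was that of day 28, 2.41 ± 0.23 (SD over 8 cows), and the mean of day 49, 1.66 ± 0.13 (SD over 6 cows), was close to that of day 14, 1.68 ± 0.44 (SD over 8 cows).

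ACADS, the mitochondrial dehydrogenase of short-chain acyl-CoA, showed the same separation. The restricted cows had 4.07, 4.36, 4.11 and 3.98 on day 28 and 3.27, 3.12, 2.69 and 3.21 on day 49. The ad libitum cows had 3.61 and 3.60, then 2.85 and 3.20. Again no day 49 value reached a day 28 value, and the difference was nearest to 0 in cow 7187, at -0.40. The estimate was -0.90 ± 0.13 (SE, n = 6 cows), 1.86-fold lower (limma, adjusted p = 0.144). ACADS had its lowest mean of the series on day 1, 2.49 ± 0.35, and its highest on day 28, 3.96 ± 0.33 (SD over 8 cows). The mean of day 49 was 3.05 ± 0.23 (SD over 6 cows). MLXIPL and ACADS were picked by their difference from day 28, so a high mean on that day is partly given by the choice.

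UBE2L6, the conjugating enzyme of the interferon-induced modifier ISG15, was at 2.45, 2.62, 2.49 and 3.25 in the restricted cows on day 28 and at 1.59, 1.56, 1.41 and 1.90 on day 49. The ad libitum cows went from 3.18 and 2.28 to 2.00 and 2.05. Cow 7187 was at -0.22 and the others at -0.86 or below, and the estimate was -0.96 ± 0.14 (SE, n = 6 cows), 1.95-fold lower (limma, adjusted p = 0.144). TBX2, a T-box transcriptional repressor, had the most negative estimate of the 16 elements with the smallest p, -1.50 ± 0.22 (SE, n = 5 cows, adjusted p = 0.144, limma). Cow 6952 had no TBX2 value on day 49. The 5 differences of TBX2 were -1.37, -1.20 and -2.40 in restricted and -0.77 and -1.78 in ad libitum cows, so all were lower but by unequal amounts. Its level varied between cows on day 28, with an SD of 1.59 over 8 cows.

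The other 3 with the smallest p among lower elements were also lower in 6 of 6 cows. TCF7L1, a repressor in Wnt signalling, differed by -0.60 ± 0.09 (SE, n = 6 cows), and its other 2 elements by -0.22 and -0.12. SCUBE1, a secreted and cell-surface glycoprotein with EGF-like domains, differed by -0.79 ± 0.12, from -0.44 in cow 7045 to -1.22 in cow 7187. BTG1, an antiproliferative regulator of transcript turnover, differed by -0.47 ± 0.07, and by -0.02 and -0.13 on its other 2 elements. Each had an adjusted p of 0.144 (limma). For TCF7L1 and BTG1 the elements of a gene thus had the same sign but not the same size.

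**Figure D2:**
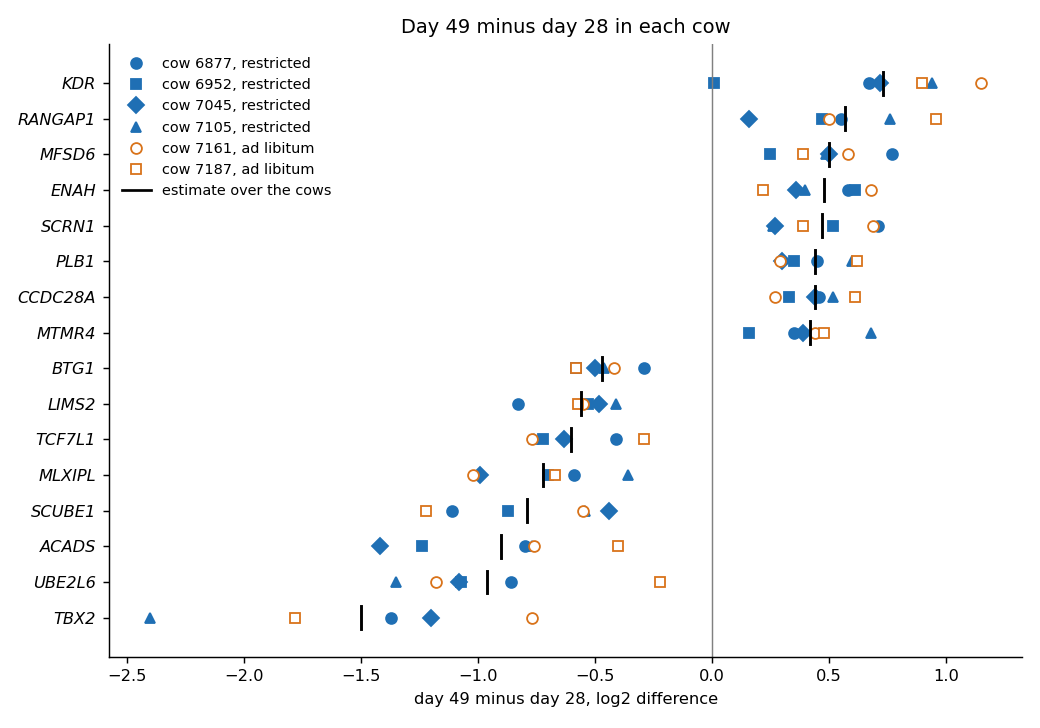
Day 49 minus day 28 (x axis, log2 difference) in each cow for the 8 genes with the smallest p in each direction (y axis); filled blue symbols are restricted and open orange symbols ad libitum cows, and the black bar is the fitted estimate. All cows lie on the same side of 0 for each gene, with cow 6952 at 0.01 for KDR, and no gene passed the adjusted threshold.

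On the higher side, KDR, the endothelial receptor of VEGF-A, had the largest of the 8 estimates. One of its 2 elements was at 1.13, 1.45, 1.06 and 1.04 in restricted cows on day 28 and at 1.80, 1.46, 1.78 and 1.98 on day 49, with 0.93 and 0.69, then 2.08 and 1.59, in the ad libitum cows. Cow 6952 was higher by 0.01 and the others by 0.67 or more, giving 0.73 ± 0.14 (SE, n = 6 cows, limma, adjusted p = 0.153). The other element of KDR differed by -0.19 ± 0.14 (SE, n = 6 cows, limma, adjusted p = 0.481), so the 2 elements of the gene had opposite signs. In the list of endothelial markers, where KDR is represented by its other element, 6 of 7 were below 0, with a median of -0.21. Over all elements of these genes it was 6 of 9, and 2 of the genes had elements of opposite sign. Among the tested elements that carry 1 gene symbol, 67.7% were below 0, so the list was near that share. At an unadjusted p under 0.05, 14.3% of the list was lower, against 13.2% of those elements.

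MFSD6, a membrane protein of the major facilitator superfamily, had the smallest p of the higher elements. It differed by 0.77, 0.25, 0.50 and 0.49 in the restricted cows and by 0.58 and 0.39 in the ad libitum cows, an estimate of 0.50 ± 0.09 (SE, n = 6 cows, limma, adjusted p = 0.144). All 6 cows were higher, and the 2 diets overlapped. RANGAP1, the GTPase activator of Ran in nuclear transport, was higher by 0.57 ± 0.11, from 0.16 in cow 7045 to 0.96 in cow 7187, with 0.07 and 0.17 on its other elements. ENAH, an actin regulator, was higher by 0.48 ± 0.09 on this element and by 0.42 on another, while its remaining element was at -0.14. CCDC28A was higher by 0.44 ± 0.08, but its other element was at -0.04. SCRN1, a secernin, PLB1, a phospholipase, and MTMR4, a phosphoinositide phosphatase, were higher by 0.47, 0.44 and 0.42, each in 6 of 6 cows. Adjusted p-values of these 6 genes lay between 0.144 and 0.153 (limma). CCDC28A, PLB1 and MTMR4 shared a course over the 7 days. Their means were -0.61 ± 0.91, -0.60 ± 0.93 and -0.42 ± 0.92 on day -14 (SD over 8 cows) and were highest on day 49. CD163, MYL9 and HSF1, described below, were likewise low on day -14 (-0.46 ± 0.89, -0.66 ± 1.01 and -0.29 ± 0.65) and highest on day 49. Whether a component common to such elements lies behind these values was not tested.

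Genes of fatty acid uptake and activation did not move one way. SLC27A2, which imports fatty acids and activates those of very long chain, was at 2.37, 2.51, 1.88 and 1.69 in restricted cows on day 28 and at 2.56, 2.62, 2.73 and 3.14 on day 49. The ad libitum cows went from 2.05 and 1.62 to 2.74 and 2.71. Every day 49 value exceeded every day 28 value, although cows 6877 and 6952, which had the highest levels on day 28, differed by 0.19 and 0.11 only. The estimate was 0.73 ± 0.18 (SE, n = 6 cows), 1.66-fold higher (limma, adjusted p = 0.153). Its mean was 0.71 ± 0.87 on day -14, 0.87 ± 0.40 on day 1 and 2.03 ± 0.34 on day 28 (SD over 8 cows). The mean of day 49, 2.75 ± 0.20 (SD over 6 cows), was the highest of the 7 days. ACSL1, the main acyl-CoA synthetase of liver, differed by -0.51, -1.50, -1.06 and 0.40 in restricted and by 0.24 and -0.17 in ad libitum cows, with an estimate of -0.43 ± 0.24 (SE, n = 6 cows, limma, adjusted p = 0.378) and cows on both sides of 0. Of the 8 list members tested, 3 were above and 5 below 0, with a median of -0.03.

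Fatty acid oxidation genes were mostly lower on day 49. Of 13 members tested, 12 were below 0 and none passed; 6 had an unadjusted p under 0.05, all lower. Their median was -0.26, compared with -0.08 over the 5547 tested elements that carry 1 gene symbol. Of those elements, 67.7% were below 0 and 13.2% were lower at an unadjusted p under 0.05, and these 2 shares are the background of the list counts that follow. They cover elements of every level, and elements with high ratios are described further on. After ACADS, the smallest p belonged to SLC25A20, the carnitine-acylcarnitine carrier of the inner mitochondrial membrane, with -0.73, -1.08, -1.02 and -0.46 in restricted and -0.16 and 0.09 in ad libitum cows. All 4 restricted cows were thus lower than either ad libitum cow, around an estimate of -0.56 ± 0.16 (SE, n = 6 cows, limma, adjusted p = 0.170). ACADVL, the very-long-chain acyl-CoA dehydrogenase, had the same order, with -0.66, -1.31, -0.57 and -0.23 in restricted and 0.00 and -0.08 in ad libitum cows (-0.47 ± 0.17, SE, limma, adjusted p = 0.207). ETFB and ETFA, the subunits of the flavoprotein that takes electrons from these dehydrogenases, differed by -0.29 ± 0.09 and -0.26 ± 0.10 (SE, n = 6 cows, limma, adjusted p = 0.171 and 0.215).

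CPT1A, the carnitine palmitoyltransferase that commits fatty acids to mitochondrial oxidation, was carried by 2 elements. The first differed by -0.43, -0.80, -0.28 and 0.42 in restricted and by 0.06 and -0.04 in ad libitum cows, the second by -0.52, -0.92, -0.47 and -0.01, and by 0.15 and 0.11. Both placed cow 6952 lowest and cow 7105 highest of the restricted cows. The estimates were -0.18 ± 0.15 and -0.28 ± 0.15 (SE, n = 6 cows, limma, adjusted p = 0.549 and 0.363). By diet, the list median was -0.40 in restricted and 0.01 in ad libitum cows, a difference tested for single genes further on.

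**Figure D3:**
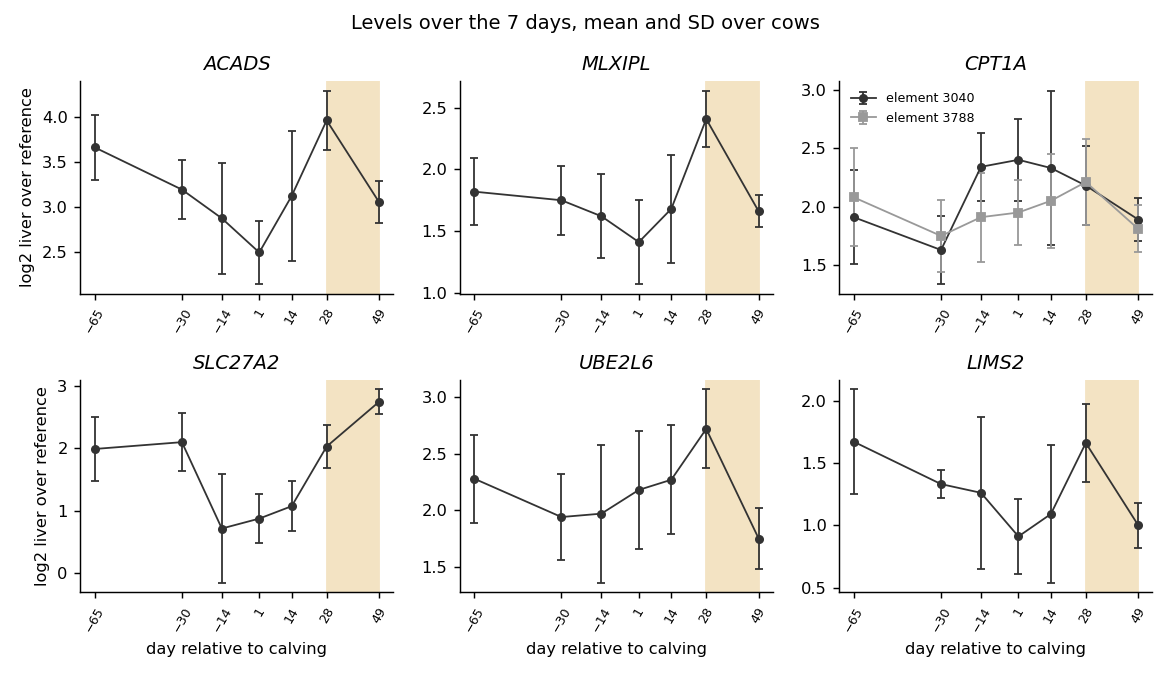
Log2 ratio of liver over reference (y axis, own scale in each panel) on the 7 biopsy days (x axis) for 6 genes; points are means and bars SDs over the cows with a value, 6 to 8 a day, and the shaded band is the interval from day 28 to day 49. ACADS, MLXIPL and UBE2L6, picked by their difference between days 28 and 49, have their highest mean on day 28. SLC27A2 has its highest on day 49. CPT1A is drawn for each of its 2 elements.

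Among genes of glucose production and pyruvate use, 10 of 12 were below 0 and 5 had an unadjusted p under 0.05, all lower; none passed. The background is 67.7% below 0 and 13.2% lower, and 5 of the 12 genes had a further element of the opposite sign, so that 12 of their 17 elements were below 0. PC, pyruvate carboxylase, which feeds lactate and alanine carbon into glucose, was at -0.01, 0.26, 0.03 and 0.07 in restricted cows on day 28 and at -0.28, -0.47, -0.04 and -0.33 on day 49. The ad libitum cows went from -0.19 and -0.53 to -0.38 and -0.49. Cow 7187 was higher by 0.04 and the others were lower, an estimate of -0.27 ± 0.11 (SE, n = 6 cows, limma, adjusted p = 0.248). MCEE, the methylmalonyl-CoA epimerase on the route from propionate, differed by -0.30 ± 0.09 and was lower in 5 of 6 cows. DLD, the lipoamide dehydrogenase shared by several dehydrogenase complexes, differed by -0.26 ± 0.10, and by 0.03 ± 0.12 on its other element. LDHA, a lactate dehydrogenase subunit, was lower in 6 of 6 cows, with an estimate of -0.37 ± 0.15 (SE, limma, adjusted p = 0.242), but cow 6952 alone was at -1.17 and the rest between -0.36 and -0.03. PDHA1, of the pyruvate dehydrogenase complex, had opposite signs on its 2 elements, 0.13 ± 0.10 and -0.16 ± 0.13 (SE, n = 6 cows, limma, adjusted p = 0.536 and 0.561). Glycolysis was divided, with 5 members above and 6 below 0; GAPDH, its triose phosphate dehydrogenase, was lower in 6 of 6 cows (-0.35 ± 0.11, SE, limma, adjusted p = 0.188).

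Lipogenic and glycerolipid genes, which include MLXIPL, were below 0 in 8 of 9 cases (67.7% in the background) with a median of -0.13. Only MLXIPL, 11.1% of the list against 13.2% in the background, was lower at an unadjusted p under 0.05. SREBF1, the insulin-responsive regulator of lipogenesis, could not be read as a direction: the restricted cows differed by -1.12, 0.07, 0.99 and -1.25, cow 7187 by -0.69, and cow 7161 had no day 28 value. Its estimate was -0.40 ± 0.32 (SE, n = 5 cows, limma, adjusted p = 0.536). In the growth hormone and IGF list, 7 of 8 were below 0 with a median of -0.14, but over all elements of these genes it was 12 of 16 (75%, against 67.7%), and 4 of the 8 had elements of opposite sign. The smallest p was that of IGFBP4, an IGF-binding protein, at -0.37 ± 0.12 (SE, n = 6 cows, limma, adjusted p = 0.192), with -0.30 and -0.13 on its other elements. IGFBP3, the main carrier of IGF in blood, was at -0.13 on the element used in the list and at 0.34 ± 0.11 and -0.45 ± 0.27 on its others (named after their values were seen), so no direction can be given for it. In the urea cycle and amino acid list, all 11 were below 0 (67.7% in the background) with a median of -0.13, as were 12 of the 15 elements of these genes. AHCY, which hydrolyses S-adenosylhomocysteine, differed by -0.37 ± 0.11 and ASL, argininosuccinate lyase, by -0.30 ± 0.10, both in 6 of 6 cows. With liver labelled in Cy3 alone, the urea cycle list stood at 0.02 relative to all elements, and with Cy5 alone at -0.34, so its position depended on the dye.

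Redox defence genes were below 0 in 20 of 21 cases, with a median of -0.21; 3 were lower and 1 higher at an unadjusted p under 0.05. The 3 lower ones are 14.3% of the list, near the 13.2% of the background, while 95.2% below 0 compares with 67.7%. The 3 lower ones were peroxiredoxins. PRDX1 differed by -0.50, -0.31, -0.20 and -0.61 in restricted and by -0.18 and -0.70 in ad libitum cows, and its day 28 levels lay within a narrow range, -2.22 to -2.08, above all day 49 levels (-0.42 ± 0.10, SE, limma, adjusted p = 0.153). PRDX5 and PRDX4 differed by -0.38 ± 0.10 and -0.24 ± 0.08 (limma, adjusted p = 0.166 and 0.189). SELENOP, the selenium transport protein secreted by liver, was the exception, with 0.39, 0.02, 0.46 and 0.87 in restricted and 0.59 and -0.04 in ad libitum cows (0.38 ± 0.13, SE, limma, adjusted p = 0.194).

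In the endoplasmic reticulum list, 21 of 25 were below 0 (84% against 67.7%) and 5 (20% against 13.2%) had an unadjusted p under 0.05, all lower. SSR3, a subunit of the translocon-associated protein complex that helps secretory proteins into the reticulum, had the smallest p. It differed by -0.68, -0.70, -0.41 and -0.48 in restricted and by -0.62 and -0.26 in ad libitum cows, an estimate of -0.53 ± 0.09 (SE, n = 6 cows, limma, adjusted p = 0.144). All 6 cows were lower; cow 7161 lay within the range of the restricted cows and cow 7187 was nearer to 0 than any of them. Of the partner subunits, SSR1 was at -0.28 ± 0.09 on one element and at -0.42 and -0.25 on its others, and SSR2 at -0.23 ± 0.09 on one element and -0.04 ± 0.08 on another. P4HB, a protein disulfide isomerase, was at -0.28 ± 0.11 with cows 7045 and 7187 slightly above 0. Among chaperones outside the reticulum, HSP90AB1, a cytosolic HSP90, ranged from 0.20 in cow 7105 to -2.33 in cow 7187 (-0.84 ± 0.29, SE, limma, adjusted p = 0.2), while HSF1, the transcription factor of the heat shock response, was higher in 6 of 6 cows, by 0.24 ± 0.08 (limma, adjusted p = 0.205).

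Ribosomal protein genes were below 0 in 42 of 44 cases (median -0.14) and oxidative phosphorylation genes in 36 of 44 (median -0.13), with 6 and 8 members at an unadjusted p under 0.05, all lower. These are 13.6% and 18.2% of the lists against 13.2% in the background, so the ribosomal count is at the background share. Below 0 were 95.5% and 81.8% against 67.7%. RPL7A and ATP5F1A had the smallest p of the 2 lists, at -0.27 ± 0.08 and -0.38 ± 0.12 (SE, n = 6 cows, limma, adjusted p = 0.170 and 0.182). The shift of both lists depended on the dye: relative to all elements it was 0.06 and 0.07 with liver in Cy3 alone, and -0.23 and -0.19 with liver in Cy5 alone. Among rapidly responding transcription regulators, JUND, an AP-1 subunit, was lower in 6 of 6 cows (-0.48 ± 0.13) and KLF4, a zinc finger factor, was higher in 5 of 6 (0.27 ± 0.09; SE, limma, adjusted p = 0.170 and 0.198).

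Complement genes, which hepatocytes and macrophages supply, were below 0 in 11 of 11 cases, with a median of -0.28 and 3 at an unadjusted p under 0.05 (27.3% against 13.2%, and 67.7% below 0 in the background). C1QB, a chain of the initiating C1q molecule, differed by -0.57, -1.56, -0.48 and -1.24 in restricted and by -0.09 and 0.35 in ad libitum cows. C1QC, another C1q chain, differed by -0.60, -0.82, -0.70 and -1.24, and by -0.34 and 0.46. C4A differed by -0.21, -0.63, -0.55 and -0.85, and by -0.45 and 0.27. For all 3, the restricted cows were lower on day 49 and cow 7187 was higher; the estimates over the 6 cows were -0.60 ± 0.23, -0.54 ± 0.19 and -0.40 ± 0.14 (SE, limma, adjusted p = 0.239, 0.212 and 0.205). The second elements of C1QB and C1QC were at -0.34 and -0.37.

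C1q is made by macrophages, and most macrophage markers were also below 0. Of their 13 members, 11 were below 0, with a median of -0.31 and 4 lower at an unadjusted p under 0.05 (84.6% and 30.8%, against 67.7% and 13.2%), of which C1QB and C1QC belong to both lists. The median level of these markers ranged from 1.79 to 2.76 on day 28 and from 1.85 to 2.50 on day 49. AIF1, a cytoplasmic protein of macrophages, was lower in 6 of 6 cows, with an estimate of -0.40 ± 0.10 (SE, limma, adjusted p = 0.155). CD163, the haemoglobin scavenger receptor of resident macrophages, was higher in 6 of 6 cows, at 0.41, 0.29, 0.17 and 0.76 in restricted and 0.17 and 0.39 in ad libitum cows (0.36 ± 0.10, SE, limma, adjusted p = 0.159). AIF1 and CD163 thus differed in direction. CD163 had a ratio near 0, with a mean of 0.08 ± 0.21 on day 28 (SD over 8 cows). The median level of the list on that day was 2.31 in the 6 cows. The part of macrophage number in the complement values was not tested. In the antigen presentation and interferon list, 12 of 16 were below 0 (75% against 67.7%; median -0.27), with TAPBP, the peptide loading chaperone tapasin, at -0.33 ± 0.11 and BOLA-DMA, of the class II loading complex, at -0.33 ± 0.11, each in 6 of 6 cows (SE, limma, adjusted p = 0.184 and 0.193). The other element of TAPBP was at -0.23.

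Of the other cell types, hepatocyte markers were below 0 in 5 of 5 cases (67.7% in the background; median -0.17), with ASGR2, a subunit of the asialoglycoprotein receptor, at -0.63, -0.88, -0.68 and -0.45 in restricted and at -0.51 and 0.28 in ad libitum cows (-0.48 ± 0.14, SE, limma, adjusted p = 0.171). Markers of stellate cells and fibroblasts were above 0 in 6 of 6 cases when 1 element stood for each gene, and their median relative to all elements was above 0 in 6 of 6 cows, from 0.10 to 0.55. Over all 9 elements of these genes, 2 were below 0: DES, the muscle-type intermediate filament desmin, was at 0.13 on the element used and at -0.36 ± 0.10 on its other (SE, n = 6 cows, limma, adjusted p = 0.168), and VIM, vimentin, at 0.13 and -0.05 (both named after their values were seen). MYL9, a myosin light chain of contractile cells, was at 0.33, 0.14, 0.18 and 0.52 in restricted and at 0.19 and 0.49 in ad libitum cows (0.31 ± 0.08, SE, limma, adjusted p = 0.166). Matrix genes were divided, with 9 of 22 above 0 and a median of -0.02.

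**Figure D4:**
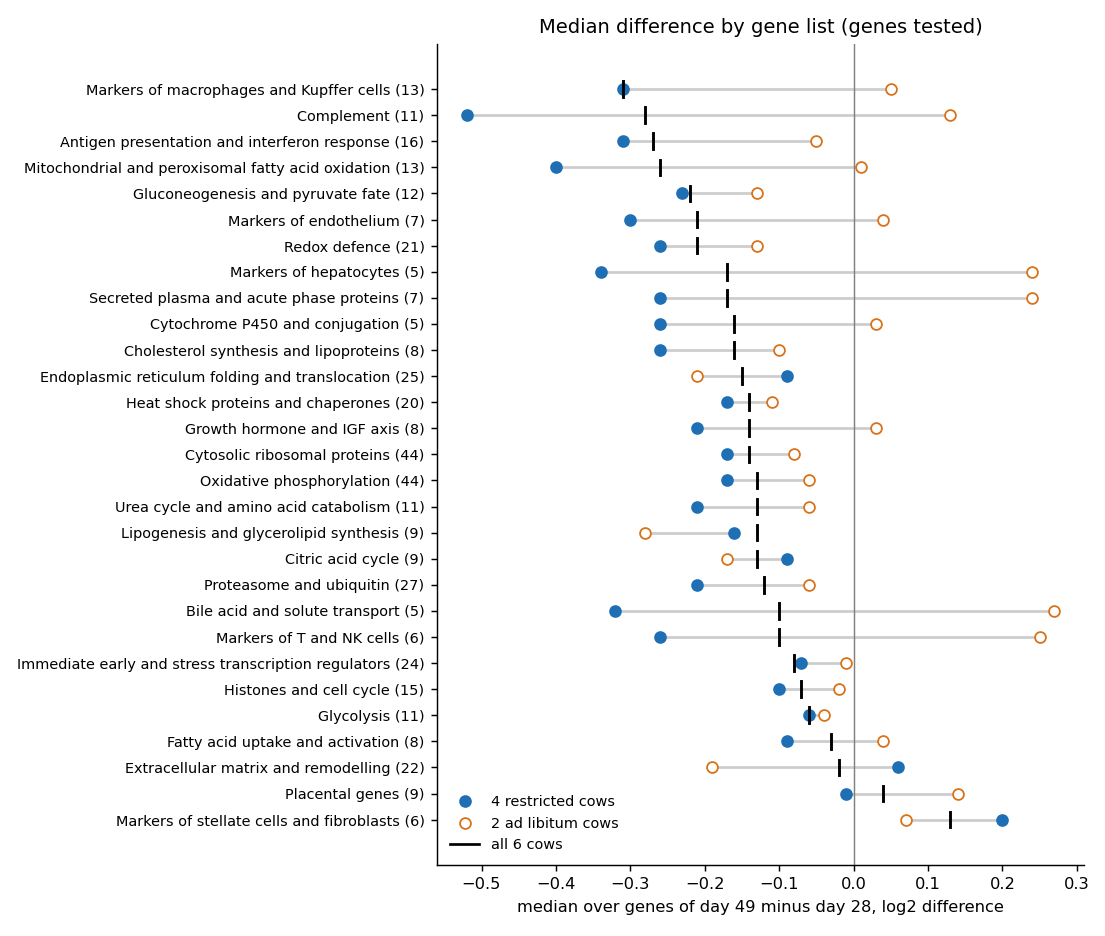
Median over genes of day 49 minus day 28 (x axis, log2 difference) for each gene list with at least 5 genes tested (y axis, number tested in brackets); blue dots are the estimates in 4 restricted cows, open orange dots those in 2 ad libitum cows, and black bars those in all 6. Several lists have a median below 0 in restricted cows and above 0 in ad libitum cows. Among them are complement, secreted plasma proteins, bile acid transport and markers of hepatocytes, macrophages and T and NK cells. Fatty acid oxidation is at 0.01 in ad libitum cows. No list member passed.

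Within each diet, the same question was asked separately. In the 4 restricted cows no element passed (limma, smallest adjusted p = 0.188), and 1404 (17.3%) had an unadjusted p under 0.05, 448 (5.53%) higher and 956 (11.8%) lower, a split of 31.9% higher that was 98.3% with no centring and 42.5% with liver in Cy3 alone. In the 2 ad libitum cows none passed either (smallest adjusted p = 0.421), with 685 (8.46%) at an unadjusted p under 0.05, 240 (2.96%) higher and 445 (5.5%) lower. Of these, 35% were higher, against 63.8% with no centring, 45.2% and 47.3% with liver in Cy3 or Cy5 alone, and 45.1% of 386 without cow 7187. The list medians of complement were -0.52 and 0.13, those of hepatocyte markers -0.34 and 0.24 and those of secreted plasma proteins -0.26 and 0.24, in restricted and ad libitum cows. This order was not particular to them: bile acid and solute transport had -0.32 and 0.27, and T and NK cell markers -0.26 and 0.25. Other lists were below 0 in both diets, such as redox defence with -0.26 and -0.13.

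Elements with high ratios were also examined as a group. For 186 elements with a mean level over 2 on days -65 and -30 (a cut chosen after the data were seen), the median difference from day 28 to day 49 was -0.34, -0.57, -0.43 and -0.19 in restricted and 0.07 and 0.11 in ad libitum cows. For 4345 elements with a level within 0.5 of 0 it was between -0.05 and -0.01 in each cow. Complement, hepatocyte markers, fatty acid oxidation and macrophage markers had median levels of 3.84, 5.02, 2.42 and 2.31 on day 28. Their list medians in restricted cows were -0.52, -0.34, -0.40 and -0.31, beside the values of the 186 elements above. The shares over all elements are therefore not a background of like level for these lists, and none of like level was made. The principal axis through the day 28 and day 49 values of a cow is their line of greatest spread, not a regression line. Its slope was 0.949 to 0.972 in restricted cows, 0.994 in cow 7161 and 1.11 in cow 7187. After each array was scaled to the same spread, the medians of the 186 elements were -0.28, -0.78, -0.86 and 0.23 in restricted and 0.29 and -0.67 in ad libitum cows, and the diets overlapped.

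The difference between the diets was tested directly as the day effect in ad libitum minus that in restricted cows. No element passed (limma, smallest adjusted p = 0.649), and 545 (6.73%) had an unadjusted p under 0.05, 328 (4.05%) higher and 217 (2.68%) lower in ad libitum cows. The larger side was not stable: it was 200 higher and 316 lower without cow 7161, 179 and 227 with liver in Cy3 alone, and 32 and 188 with no centring. SERPINA3-3, a serine protease inhibitor of the acute phase family, had the smallest p among those higher. It stood at 8.63, 8.59, 8.47 and 8.89 in restricted cows on day 28 and at 7.93, 8.23, 7.99 and 8.34 on day 49, while the ad libitum cows went from 7.04 and 7.67 to 8.18 and 8.25. The diets did not overlap on day 28 and overlapped on day 49. The diet difference was 1.38 ± 0.21 (SE, 4 and 2 cows, limma, adjusted p = 0.680).

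UBE3B, a ubiquitin ligase, was at -0.31, 0.25, -0.16 and -0.44 in restricted and at 1.51 and 2.69 in ad libitum cows, a diet difference of 2.26 ± 0.35. STK40, a kinase-like protein, was lower in all restricted cows, from -0.82 to -0.45, and higher by 0.17 and 0.50 in ad libitum cows (0.99 ± 0.18), but its diet difference was -0.33 with liver in Cy3 alone. The other element of STK40 had a diet difference of 0.71 ± 0.31. In the opposite direction, ZNF106, a zinc finger protein, was at 0.29, 0.37, 0.28 and 0.05 in restricted and at -0.52 and -0.83 in ad libitum cows (-0.92 ± 0.18), and its other element had 0.14 ± 0.29. PTPN1, the phosphatase that acts on the insulin receptor, was at -0.31, 0.24, -0.52 and -0.52, and at -1.77 and -1.33 (-1.27 ± 0.27), with diet differences of 0.15 ± 0.29 and -0.23 ± 0.19 on its other elements. CCNA1, a cyclin, had a diet difference of -1.08 ± 0.24 on one element and 0.70 ± 0.19 on the other. For ZNF106, PTPN1 and CCNA1 the elements of a gene thus differed in sign. The first value of each of these 5 genes had an adjusted p of 0.680 (limma, 4 and 2 cows).

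SLC10A1, through which hepatocytes take up bile acids from blood, was split between cows. It was at 6.39, 6.45, 6.15 and 5.90 in restricted cows on day 28 and at 5.83, 5.68, 5.38 and 6.11 on day 49, with 5.43 and 5.76, then 6.0 and 6.05, in ad libitum cows. Cows 6877, 6952 and 7045 were lower, cow 7105 and both ad libitum cows were higher, and the estimate over 6 cows was -0.17 ± 0.20 (SE, limma, adjusted p = 0.682). Its diet difference was 0.90 ± 0.30 (limma, adjusted p = 0.712). For SLC25A20 it was 0.79 ± 0.22 (adjusted p = 0.680), for C1QB 1.09 ± 0.34 and for C1QC 0.90 ± 0.28 (each adjusted p = 0.712, limma), and for the second element of CPT1A 0.61 ± 0.25 (adjusted p = 0.728). ACADS, MLXIPL and SSR3 were lower in both diets, with diet differences of 0.48 ± 0.25, -0.18 ± 0.22 and 0.13 ± 0.18 (adjusted p = 0.757, 0.880 and 0.908, limma).

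Over all elements, the profiles of differences were only weakly correlated between cows. The day 49 minus day 28 values of a pair of cows correlated between -0.147 and 0.347, with a median of 0.123 over 15 pairs. The pair with the highest value was 6952 and 7045. For the intervals that ended on days -30, -14, 1, 14 and 28, the median was 0.108, 0.372, -0.0249, 0.00197 and 0.184. A low correlation over all elements does not exclude differences that the cows share in single elements. Elements are not independent replicates, so these correlations describe the profiles only.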

How the data were processed

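The authors deposited a log2 ratio of Cy5 over Cy3 for each spot, 16416 per array, and the log base was read from the values: exact values of 1 and -1 were 3.59 and 8.18 times as frequent as their neighbours. Per the labels, images were processed with GenePix; their background correction is not given in the sources used here, nor is any normalization. The medians of the 24 arrays lay between -1.44 and 0.996, so arrays had not been centred. Dyes were taken from the titles. Both orientations of each sample correlated negatively as deposited (-0.761 to -0.530), which shows a dye swap but not which dye held liver. That direction rests on the titles, and the hepatocyte markers stood above the reference after turning. Ratios were turned to liver over reference, centred on the array median, averaged over the 2 spots of an element and over both orientations. Between 71 and 267 spots lacked a value on each array. Testing required that at least 5 of 6 cows had both days for an element, which left 8097 of 8208 and excluded 111. The number of cows limits the precision.

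Fits were made in limma 3.58.1 (R 4.3.3, statmod 1.5.0), with cow as a fixed block, since the cow numbers in the titles pair the days, and Benjamini-Hochberg adjustment over all elements tested. A second fit gave each diet its own day effect and their difference, tested two-sided.

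A single gene symbol, from the platform annotation updated through a RefSeq gene table of ARS-UCD2.0, was available for 5598 elements, several for 95, and none was listed for 2515. Where a gene had several elements, the one with values in most of the 12 cow-days, then with the highest mean level, represented it in the lists; the others are given for the genes with the smallest p, for those of the diet difference and for others named in the text. Named genes were the 8 per direction with the smallest p (none passed the threshold), up to 4 members with the smallest p of each list described, a set of liver metabolism genes followed whatever their result, and the 3 per direction with the smallest p for the diet difference. The members and gene lists were chosen with earlier results of these data known. Alternatives covered pairing, centring, scaling, each dye alone, the filter, robust moderation, weighting of diets, a fit to all 53 cow-days and each cow left out.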

Additional observations from a re-analysis of the deposited data

Results flagged for a closer look

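Single cows stood apart in 15 of 197 sets of values examined by Dixon's test at its 95% limit (restricted cows on each day, and the 6 paired differences, of the named genes); chance gives about 1 in 20. Among paired differences, cow 6952 was lowest for LDHA, at -1.17 against -0.36 to -0.03 in the others, and for the second element of KDR, at -0.93 against -0.16 to 0.19. Cow 7187 was highest for ASGR2, at 0.28 against -0.88 to -0.45, and for RPL7A, at -0.01 against -0.38 to -0.26. Among restricted cows on day 28, cow 7105 was lowest on both elements of PDHA1, at -0.13 against 0.34 to 0.39 and at -1.80 against -1.09 to -1.03, and highest for GAPDH, at -0.99. Cow 6877 was lowest for UBE3B, at -0.36 against 1.34 to 1.51, and highest for LIMS2, at 1.84. Cow 6952 was highest for IGFBP4, at 4.08, and cow 7045 for ENAH, at -1.11. On day 49, cow 6877 was lowest for SREBF1, at -1.15 against 0.67 to 0.80. Cow 7105 was lowest for ENAH, at -0.94, and highest for MYL9, at 0.21, and cow 6952 was highest for P4HB, at 1.06.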

How the results depend on the processing

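In all 6 cows, the count of 0 that passed became 5 with no replicate block, 25 with no centring (all higher; the median of all elements was then 0.28) and 1 in a fit of 14 group means over all 53 cow-days with cow as a random block. It was 0 without each cow in turn, and the count at an unadjusted p under 0.05 was 808 with no centring, 581 in the group-means fit and 991 to 1582 without 1 cow, the lowest without cow 7045. The share of higher elements among these, 34.6%, was 97.2% with no centring, 24.9% with liver in Cy5 alone and 15.0% in the group-means fit. In restricted cows, 1 passed with no replicate block and 1 with Cy5 alone; unadjusted counts were 934 with Cy3 alone, 333 in the group-means fit and 882 to 1403 without 1 cow, with 882 without cow 6877 and 899 without cow 7045; 6.91% were higher in the group-means fit. In ad libitum cows, 5 passed with no centring, 3 with Cy3 alone and 1 in the group-means fit; unadjusted counts were 138 with no centring, 1188 with Cy3 alone, 438 with Cy5 alone, 264 in the group-means fit and 386 (without cow 7187) to 809 without 1 cow; 19.7% were higher in the group-means fit. For the diet difference, 1 passed with no centring, and unadjusted counts were 220 with no centring, 72 in the group-means fit and 402 to 635 without 1 cow; 60.2% were higher, against 31.9% in the group-means fit. Without 1 ad libitum cow, the other is assumed to vary like the restricted cows. The cause of these shifts was not tested.

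Of 66 single-gene results, followed over 1051 alternatives, the sign changed in 25, all of them with Cy3 alone or with no centring. With Cy3 alone, the first element of CPT1A was 0.05, ETFB 0.01, RPL7A 0.01, SLC10A1 0.06, SSR2 0.03 and the diet difference of STK40 -0.33. With no centring, which adds each array's own offset, ASL was 0.05, BOLA-DMA 0.01, CPT1A 0.17 and 0.07, DLD 0.08, ETFA 0.08, ETFB 0.05, KDR (second element) 0.15, MCEE 0.05, P4HB 0.06, PC 0.08, PDHA1 (second element) 0.19, PRDX4 0.11, RPL7A 0.07, SLC10A1 0.18, SREBF1 0.15, SSR1 0.07, SSR2 0.11 and TAPBP 0.01. LIMS2, MLXIPL, ACADS, UBE2L6, TBX2, SSR3, SLC27A2 and the first element of KDR kept their sign under each alternative run. Each had the same sign in every cow with both days, so leaving out a cow or reweighting the diets could not change it. For them, only alternatives that change the values themselves, such as centring, scaling and each dye alone, were informative about the sign. A fit of the restricted cows alone was chosen after seeing the data. Spot intensities are not given in the sources used here, so signal over background was not examined.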
